A study of Mus musculus with 10 samples.

Results

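Transcripts of 33 genes of the peroxisome were measured in livers of Etnppl knockout and wild-type mice. The genes were taken by symbol from a given list of peroxins, oxidation enzymes and transporters, ether lipid enzymes and 4 other peroxisomal enzymes, and all 33 of 33 were found among the 47729 genes of the table. The 2 groups were full-body Etnppl knockout (KO) females and wild-type (WT) females, with 5 liver libraries each. Chow was given to both for 8 weeks, followed by 10 weeks of a high-fat diet that supplied 45% of kcal as fat, so no library comes from a mouse on chow alone. Etnppl encodes the lyase that breaks down phosphoethanolamine. The sources used here do not give the age at the start of chow, the strain or the deleted part of the gene. They also do not say that every library came from its own animal. The p-values set the KO minus WT difference against the spread among these libraries, which may not be the spread among animals. Values are FPKM, fragments scaled to transcript length and to the size of the library, which can be compared between genes because they are per length.

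Peroxisomes are single-membrane organelles that shorten fatty acids too long or too branched for mitochondria, finish the side chain of bile acids, start the synthesis of ether phospholipids such as plasmalogens, and break down the hydrogen peroxide that their oxidases make. They have no DNA, and peroxins bring their proteins in from the cytosol. In mouse liver, the fatty acid receptor PPAR alpha raises transcription of many of their straight-chain oxidation genes. Plasmalogens carry an ethanolamine head group in most tissues.

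Etnppl had 8.79, 7.75, 10.19, 7.36 and 9.35 FPKM in KO replicates 1 to 5, against 27.57, 56.55, 32.99, 36.68 and 30.63 FPKM in WT replicates 1 to 5. The groups did not overlap, and the lower group was the one labelled KO (3.96-fold lower in KO, limma adjusted p = 0.000387). Hepatocyte markers were high everywhere, with a summed level of 64885 to 76251 FPKM in KO and 57251 to 69179 FPKM in WT, and all 8 of the 8 markers had a log2 fold change above 0. Of these Ahsg and Cps1 were at an unadjusted p under 0.05, and the groups did not overlap in Cps1, whose KO mean was 143% of the WT mean. Of all genes tested with limma, 2.69% were higher in KO at that p, and 0.581% were higher without overlap. A log2 fold change above 0 was found in 0 of 7 Kupffer and 0 of 4 tested lymphocyte markers, 2 of 7 endothelial, 1 of 7 stellate, 1 of 4 tested cholangiocyte and 1 of 4 erythroid markers. On this scale 65.1% of all genes tested had a log2 fold change below 0. No marker passed the adjusted test. Adipocyte markers summed to at most 0.59 FPKM in KO and 0.41 FPKM in WT, and Lep was at 0 in every library. The Kupffer cell sum was 177.51 to 269.70 FPKM in KO and 207.48 to 292.23 FPKM in WT, and the lymphocyte sum 8.03 to 8.99 FPKM in KO and 7.01 to 15.76 FPKM in WT. The endothelial sum was 155.32 to 187.78 FPKM in KO and 167.59 to 190.31 FPKM in WT, the stellate sum 153.27 to 174.37 FPKM in KO and 160.98 to 217.24 FPKM in WT, the cholangiocyte sum 19.14 to 28.87 FPKM in KO and 22.51 to 27.77 FPKM in WT, and the erythroid sum 429.26 to 574.42 FPKM in KO and 414.86 to 753.14 FPKM in WT. WT replicate 2 had the highest WT hepatocyte, stellate, lymphocyte, cholangiocyte and erythroid sums, and WT replicate 1 the highest WT Kupffer and endothelial sums. The 5 pancreas markers summed to 2.11 to 37.98 FPKM in KO and 2.39 to 3.14 FPKM in WT. KO replicate 3 stood apart there, with 10.83 FPKM of Cpa1, against at most 0.03 FPKM in the other KO libraries and 0.06 FPKM in WT libraries, and Prss1 was at 0 in every library. The part of these differences in the results was not tested, and in bulk liver fewer cells of a type and less RNA per cell cannot be told apart.

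No peroxisome gene passed the test across all genes. The fit with limma covered the 12395 genes whose mean reached 0.5 FPKM, on log2(FPKM + 0.5), and 8 of them (0.0645%) had a Benjamini-Hochberg adjusted p under 0.05. All 33 peroxisome genes were above that filter, and the smallest adjusted p among them was 0.104, for Crot. At an unadjusted p under 0.05, 7 were lower in KO (Crot, Abcd2, Scp2, Decr2, Abcd3, Ehhadh and Pex3), or 21.2% of 33, against 9.07% of all genes tested. By the same measure 1 was higher in KO, Acox2, or 3.03%, against 2.69% of all genes. In KO 25 of 33 had a log2 fold change below 0, or 75.8%, against 65.1% of all genes, and the median was -0.07, against -0.05 over all genes.

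That count depended on how libraries were scaled. With median-of-ratios scaling 2 peroxisome genes were lower and 2 higher at an unadjusted p under 0.05, the lower ones being Crot and Abcd2 and the higher ones Acox2 and Acox3. The share of lower ones was then 6.06%, against 4.83% of all genes, and all genes split into 599 lower and 669 higher, where the deposited scale gave 1124 lower and 334 higher. A log2 fold change below 0 was then found in 20 of 33, against 50.3% of all genes. With quantile normalization 6 were lower, or 18.2% against 5.48% of all genes, and 1 was higher, against 5.2% of all genes. All genes then split into 679 lower and 645 higher. Rescaling to TPM gave 6 lower and 1 higher, against 7.63% and 2.99% of all genes. Rescaling without the top 50 genes gave 6 lower and 2 higher, against 7.16% and 3.25%. On the deposited scale the count of 8 became 3 without WT replicate 1 and 4 without WT replicate 3.

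**Figure D1:**
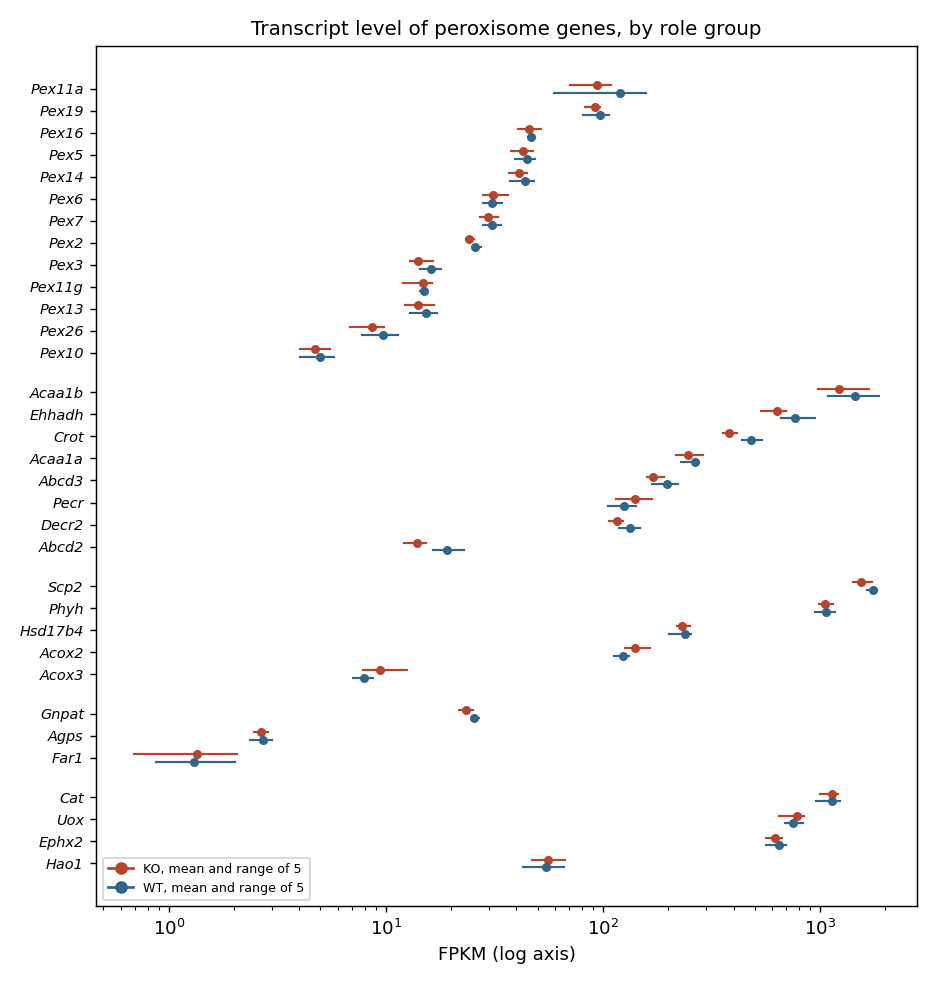
FPKM on a log axis for 33 peroxisome genes in 5 role groups, with points for the mean and lines for the range of 5 KO (red) and 5 WT (blue) libraries. Levels run from Far1, at 1.36 FPKM in KO and 1.31 FPKM in WT, to Scp2, at 1540 FPKM in KO and 1753 FPKM in WT, and the ranges of Crot and Abcd2 do not overlap.

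The genes differed widely in level. Together they took 1.23 ± 0.0712% of all FPKM in KO and 1.33 ± 0.107% in WT (mean ± SD, n = 5 each). The 4 most abundant were Scp2, Acaa1b, Cat and Phyh in both genotypes. The 13 peroxins summed to 457 ± 32.8 FPKM in KO and 501 ± 59.5 FPKM in WT, and the 8 straight-chain oxidation genes to 2934 ± 342 FPKM in KO and 3441 ± 461 FPKM in WT. The 3 ether lipid genes summed to 27.5 ± 1.36 FPKM in KO and 29.6 ± 0.554 FPKM in WT (SD, n = 5 each).

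In all 13 peroxins the KO and WT libraries overlapped. Groups without overlap were seen with KO lower in 2.21% of all genes tested and with KO higher in 0.581%. Of 13 peroxins, 12 had a log2 fold change below 0, against 65.1% of all genes tested, and Pex11g and Pex16 of these 12 lay above 0 with median-of-ratios scaling. The median was -0.07, against -0.05 over all genes. At an unadjusted p under 0.05, 1 was lower in KO, where 9.07% of all genes were. Pex3, the membrane anchor that receives new membrane proteins, had 13.25, 12.94, 13.55, 16.47 and 14.19 FPKM in KO replicates 1 to 5, against 17.99, 15.93, 17.74, 14.86 and 14.30 FPKM in WT replicates 1 to 5. The ranges overlapped, with KO replicate 4 above the 3 lowest WT libraries (log2 fold change -0.19, 95% CI -0.38 to -0.0026, limma adjusted p = 0.416). An exon of Pex3 shares 249 bases with Adat2 on the opposite strand, 5.25% of its exon bases, and Adat2 averaged 2.28 FPKM. The group means of its partners lay within the spread of the libraries. Pex16, which acts with it at the membrane, had 45.7 ± 4.69 FPKM in KO and 46.9 ± 1.32 FPKM in WT, and Pex19, the soluble chaperone of membrane proteins, 91.7 ± 5.74 FPKM in KO and 96.9 ± 10.5 FPKM in WT.

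Receptors and docking proteins for matrix import differed by less than the spread between libraries. Pex5, the receptor for the carboxy-terminal signal that most matrix enzymes carry, had 42.8 ± 4.57 FPKM in KO and 44.8 ± 3.59 FPKM in WT. Pex7, the receptor for the amino-terminal signal found on the thiolases and on Agps and Phyh, had 29.5 ± 2.10 FPKM in KO and 30.9 ± 2.30 FPKM in WT. The docking proteins Pex13 and Pex14 had 14.1 ± 1.70 and 41.1 ± 3.41 FPKM in KO, against 15.3 ± 1.60 and 44.0 ± 4.08 FPKM in WT. Pex2 and Pex10, ring-finger ligases that ubiquitinate the receptor for recycling, had 24.2 ± 0.768 and 4.71 ± 0.596 FPKM in KO, against 25.7 ± 0.959 and 4.96 ± 0.778 FPKM in WT. Pex6, an ATPase that pulls the receptor back out, had 31.1 ± 3.46 FPKM in KO and 30.7 ± 2.64 FPKM in WT, and Pex26, its membrane anchor, 8.66 ± 1.12 FPKM in KO and 9.72 ± 1.36 FPKM in WT. None of these 8 had a 95% interval that left out 0, and the widest, for Pex10, was -0.31 to 0.19 on the log2 scale. Intervals spanned 0 in 10937 of the 12395 genes tested.

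Pex11a and Pex11g, which elongate and divide peroxisomes, differed in how much they varied among WT libraries. Pex11a, the form induced by PPAR alpha, had 93.37, 109.17, 104.87, 70.57 and 93.50 FPKM in KO replicates 1 to 5, against 149.40, 59.53, 157.53, 121.74 and 113.41 FPKM in WT replicates 1 to 5. In WT, 4 of 5 libraries lay above every KO library, while WT replicate 2 lay below all 5. With all libraries the log2 fold change was -0.29 (95% CI -0.83 to 0.25, limma adjusted p = 0.690), and without WT replicate 2 it was -0.52 (limma adjusted p = 0.151). It was -0.17 without WT replicate 3, and -0.19 without WT replicate 1 or without KO replicate 4. Pex11g had 12.00, 15.95, 15.61, 14.26 and 16.40 FPKM in KO replicates 1 to 5, against 14.40, 15.19, 15.03, 14.94 and 15.03 FPKM in WT replicates 1 to 5. Its coefficient of variation in WT was 2.03%, the smallest of the 33 genes there, where Pex11a had 32.1%. In KO it was 12.0% for Pex11g and 15.9% for Pex11a.

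The group listed here as straight-chain oxidation and its transporters held 5 of the 8 genes at an unadjusted p under 0.05. All 5 were lower in KO, where 9.07% of all genes tested were lower at that p. The group takes in Abcd3, which also carries branched acyl-CoAs. The lists were chosen with earlier results of these data known, so the count is not independent of those results. In this group 7 of 8 genes had a log2 fold change below 0, against 65.1% of all genes. The count of 5 was 2 with median-of-ratios scaling, and it stayed 5 with quantile normalization, TPM and rescaling without the top 50 genes. It was 2 without WT replicate 1, 3 without WT replicate 3 and 6 without WT replicate 2. Without KO replicate 4 it was 6, with Pecr, higher in KO, among them. The median of these 8 was -0.23, against -0.05 over all genes tested. Crot, the carnitine octanoyltransferase that hands shortened acyl chains on to mitochondria, had 359.53, 397.86, 413.72, 357.15 and 377.57 FPKM in KO replicates 1 to 5, against 539.34, 467.65, 486.67, 484.86 and 437.24 FPKM in WT replicates 1 to 5. The highest KO library lay below the lowest WT library. The KO mean was 78.9% of the WT mean (log2 fold change -0.34, 95% CI -0.49 to -0.19, limma adjusted p = 0.104). The gene lies on the minus strand at chr5:8966033-8997324 (GRCm38).

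Abcd2, a half-transporter that brings very long and polyunsaturated acyl-CoAs into the peroxisome, had 12.18, 15.24, 14.81, 13.18 and 14.26 FPKM in KO replicates 1 to 5, against 19.40, 17.92, 16.48, 19.34 and 22.89 FPKM in WT replicates 1 to 5. Here too the groups did not overlap, and the KO mean was 72.6% of the WT mean (log2 fold change -0.45, 95% CI -0.64 to -0.25, limma adjusted p = 0.107), the largest log2 difference of the 33 genes. Groups that did not overlap with KO lower were seen in these 2 of 33 genes (6.06%), against 2.21% of all genes tested, and groups with KO higher in 0 of 33, against 0.581%. Abcd3, the related and far more abundant transporter of dicarboxylic and branched acyl-CoAs, had 191.95, 159.43, 159.19, 167.48 and 175.84 FPKM in KO replicates 1 to 5, against 212.99, 169.26, 222.67, 200.37 and 184.18 FPKM in WT replicates 1 to 5. KO replicate 1 lay above WT replicates 2 and 5, and KO replicate 5 above WT replicate 2 (log2 fold change -0.21, limma adjusted p = 0.337). Within a library Abcd3 exceeded Abcd2 by a factor of 12.4 ± 2.11 in KO and 10.5 ± 2.03 in WT (SD, n = 5 each). Abcd2 is at chr15:91145871-91191799 and Abcd3 at chr3:121758774-121815302, both on the minus strand.

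**Figure D2:**
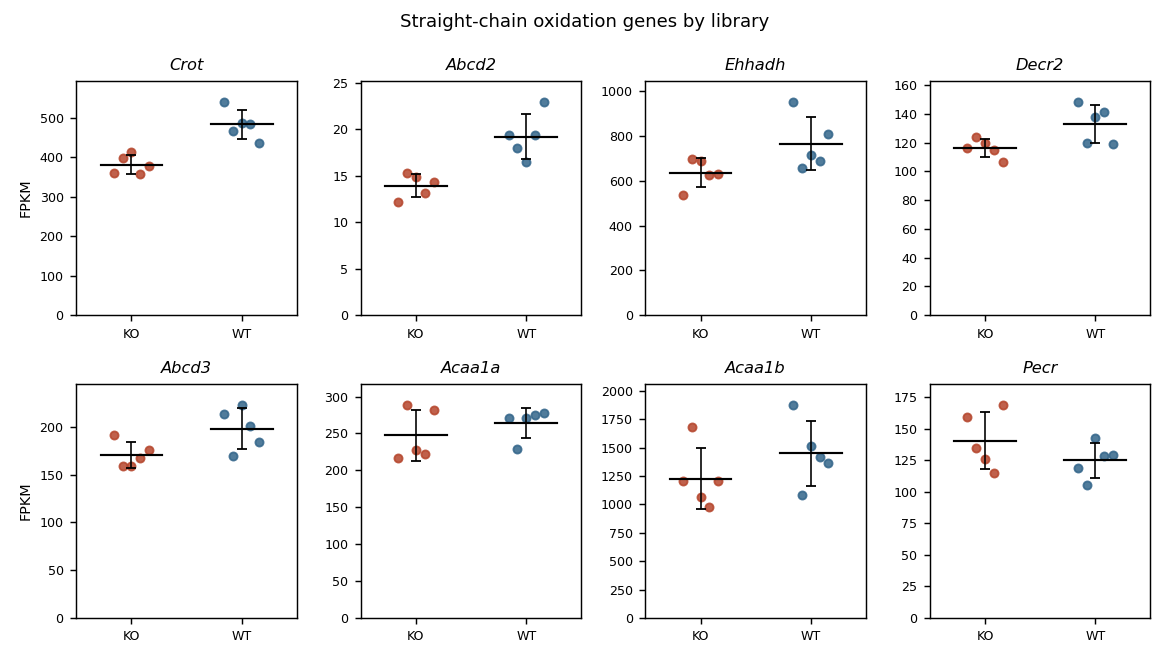
FPKM of 8 straight-chain oxidation and transport genes in each KO (red) and WT (blue) library, with the mean and SD of 5 as lines and axes from 0. The KO points of Crot and Abcd2 lie below all WT points, and in the other 6 genes the groups overlap.

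Ehhadh, the bifunctional enzyme that hydrates and then oxidizes the chain, had 535.34, 697.91, 689.10, 626.34 and 630.10 FPKM in KO replicates 1 to 5, against 951.25, 659.33, 716.64, 688.32 and 810.57 FPKM in WT replicates 1 to 5. WT replicates 1, 3 and 5 lay above all KO libraries, and WT replicates 2 and 4 lay among them (log2 fold change -0.26, 95% CI -0.49 to -0.03, limma adjusted p = 0.341). Decr2, the dienoyl-CoA reductase that prepares unsaturated chains, had 116.06, 123.78, 119.81, 115.23 and 106.63 FPKM in KO replicates 1 to 5, against 148.15, 119.61, 138.10, 141.37 and 119.28 FPKM in WT replicates 1 to 5 (log2 fold change -0.19, limma adjusted p = 0.319). WT replicates 2 and 5 lay among the KO libraries. Pecr, an enoyl-CoA reductase, ran the other way without passing, at 141 ± 22.6 FPKM in KO and 125 ± 13.9 FPKM in WT (log2 fold change 0.16, limma adjusted p = 0.597).

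The thiolases Acaa1a and Acaa1b, which release acetyl-CoA in the last step, are copies on chromosome 9. Acaa1b is at chr9:119148023-119157093 on the minus strand and Acaa1a at chr9:119339676-119350299 on the plus strand. Acaa1b, the more abundant copy, had 1209.79, 1680.65, 1068.13, 975.09 and 1205.98 FPKM in KO replicates 1 to 5, against 1875.62, 1085.05, 1516.08, 1421.37 and 1363.86 FPKM in WT replicates 1 to 5. The groups overlapped widely (log2 fold change -0.25, 95% CI -0.59 to 0.10, limma adjusted p = 0.574). Acaa1a had 216.83, 288.34, 228.09, 221.69 and 281.42 FPKM in KO replicates 1 to 5, against 271.51, 228.65, 271.39, 274.51 and 277.95 FPKM in WT replicates 1 to 5 (log2 fold change -0.11, limma adjusted p = 0.705). In both copies KO replicate 2 was the highest KO library and WT replicate 2 the lowest WT library. Acaa1b exceeded Acaa1a by a factor of 4.95 ± 0.705 in KO and 5.46 ± 0.867 in WT. Of the 50-base words in Acaa1b transcripts, 30.5% also occur in Acaa1a transcripts, so the split of reads between the copies is uncertain. Acaa1a also shares 290 exon bases with Myd88 on the opposite strand, at an average of 10.7 FPKM for Myd88.

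Sequences before the RefSeq start of these genes are shown because the copies differ there and in level, and because Ehhadh is a standard PPAR alpha target. They are from RefSeq on GRCm38.p6, with bases in annotated exons left out, and run 5′ to 3′ on the strand of the gene. Capitals mark GC boxes (GGGCGG) and CCAAT boxes, each on either strand. The Acaa1a stretch is chr9:119341160-119341293 on the plus strand, the Acaa1b stretch chr9:119157094-119157343 on the minus strand and the Ehhadh stretch chr16:21787835-21788084 on the minus strand.
Acaa1a: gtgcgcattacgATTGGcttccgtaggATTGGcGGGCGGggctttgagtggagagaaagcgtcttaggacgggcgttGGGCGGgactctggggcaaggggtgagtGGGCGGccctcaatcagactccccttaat
Acaa1b: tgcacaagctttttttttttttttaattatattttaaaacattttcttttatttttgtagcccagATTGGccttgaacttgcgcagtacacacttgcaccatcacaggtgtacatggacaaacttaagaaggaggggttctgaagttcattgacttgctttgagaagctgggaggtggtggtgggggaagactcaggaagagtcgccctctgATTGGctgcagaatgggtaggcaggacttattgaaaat
Ehhadh: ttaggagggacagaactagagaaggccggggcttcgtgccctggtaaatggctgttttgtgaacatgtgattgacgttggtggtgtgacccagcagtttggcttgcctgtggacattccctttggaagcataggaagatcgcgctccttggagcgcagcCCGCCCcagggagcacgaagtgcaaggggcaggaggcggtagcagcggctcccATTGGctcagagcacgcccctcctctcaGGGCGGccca

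In the 250 bases before the RefSeq start, Acaa1a had 3 GC boxes and 10 CG dinucleotides, and Acaa1b had 0 GC boxes and 2 CG dinucleotides. The Acaa1a window lies inside the gene span given above, with 113 bases in annotated exons. That of Acaa1b lies outside its span, with 0 such bases, so the 2 windows are not alike in position. The share of G and C was 53.6% in Acaa1a and 41.6% in Acaa1b. Ehhadh had 2 GC boxes, 1 CCAAT box and 12 CG dinucleotides. Of 33 such windows found for 28 of the genes, 57.6% held a GC box, against 32.7% of all 32851 promoter windows, and 39.4% held CCAAT, against 33.8%. These windows were also richer in G and C, with a median of 58.8% against 52.4% in all windows. Their median count of CG dinucleotides was 12, against 6. Bases in annotated exons were kept in these counts. The nuclear receptor half-site AGGTCA, searched on both strands, was in 9.09% of the windows (those of Cat, Pex11g and Scp2), against 14.0% of all windows. Its direct repeat with 1 base between the copies was in 0 windows of these genes and in 0.0335% of all windows. A match that rare cannot set 33 windows apart from the rest. These matches describe the letters of the windows only.

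**Figure D3:**
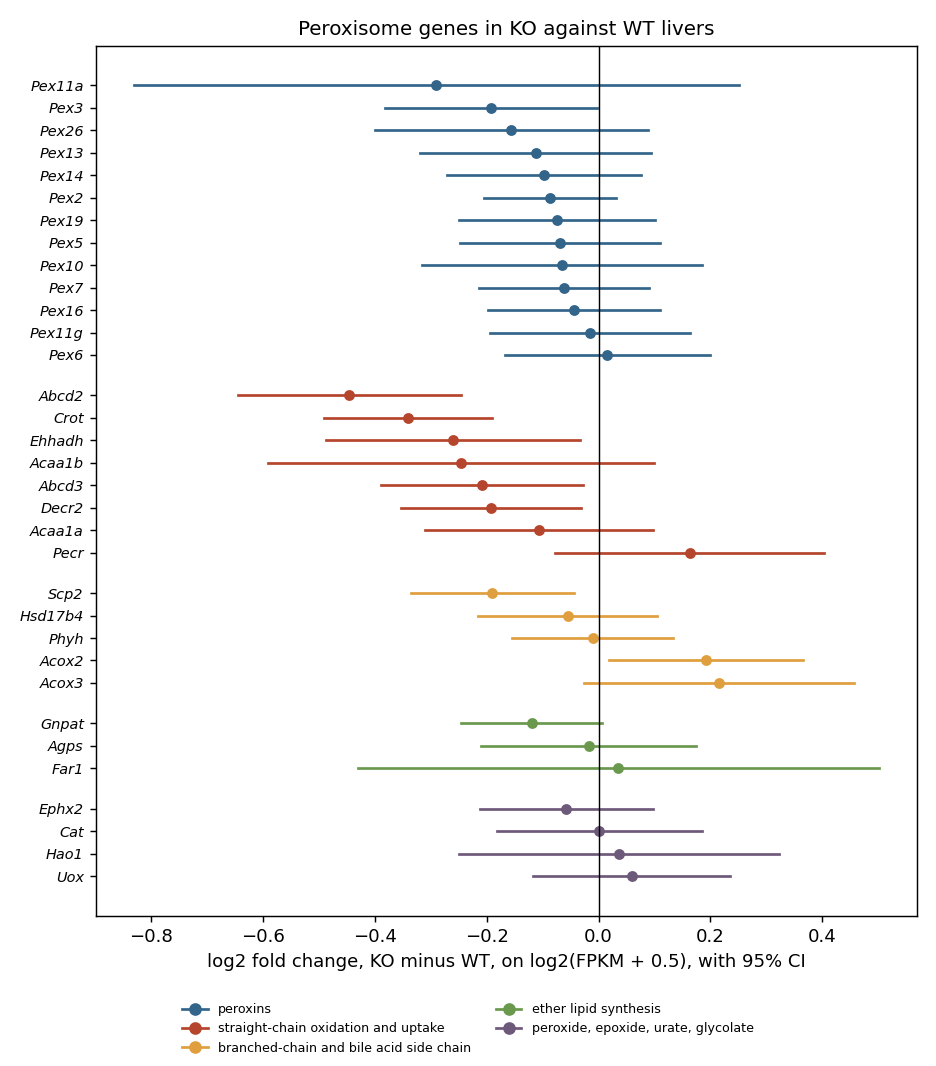
Log2 fold change of KO over WT, on log2(FPKM + 0.5), with 95% confidence intervals for 33 peroxisome genes in 5 role groups, each gene a point and a line. Among straight-chain genes 5 intervals lie below 0, and Acox2 is the only gene with an interval above 0.

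Branched-chain and bile acid side-chain genes went in both directions. Scp2, which encodes the thiolase of this branch and a sterol carrier protein, had 1464.78, 1728.78, 1462.80, 1416.14 and 1627.68 FPKM in KO replicates 1 to 5, against 1789.83, 1656.14, 1765.67, 1823.86 and 1727.48 FPKM in WT replicates 1 to 5. KO replicate 2 lay above the 2 lowest WT libraries, and the other 4 lay below all WT libraries (log2 fold change -0.19, 95% CI -0.34 to -0.04, limma adjusted p = 0.278). Of the 50-base words in Scp2 transcripts, 29.7% also occur in Scp2-ps2, so some reads could be split with that copy. Acox2, the oxidase that starts the shortening of the bile acid side chain, had 126.93, 135.07, 130.95, 164.38 and 148.51 FPKM in KO replicates 1 to 5, against 112.87, 131.63, 122.62, 116.55 and 132.35 FPKM in WT replicates 1 to 5. It had the only log2 fold change above 0 at an unadjusted p under 0.05 (0.19, 95% CI 0.02 to 0.36, limma adjusted p = 0.364), and the ranges overlapped. Acox2 was no longer under that p with quantile normalization, without KO replicate 4 or 5, or without WT replicate 1, 3 or 4.

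The other enzymes of this branch overlapped too, as most genes tested did. Acox3, an oxidase of branched chains, had 9.40 ± 1.83 FPKM in KO and 7.94 ± 0.608 FPKM in WT (log2 fold change 0.22, limma adjusted p = 0.466). Without KO replicate 2, at 12.55 FPKM, the log2 fold change was 0.11. Hsd17b4, the bifunctional enzyme for branched chains and bile acid intermediates, had 230 ± 13.5 FPKM in KO and 240 ± 22.0 FPKM in WT. Phyh, which hydroxylates phytanoyl-CoA in the first step of alpha oxidation, had 1054 ± 55.8 FPKM in KO and 1063 ± 77.3 FPKM in WT (log2 fold change -0.01, 95% CI -0.15 to 0.13).

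**Figure D4:**
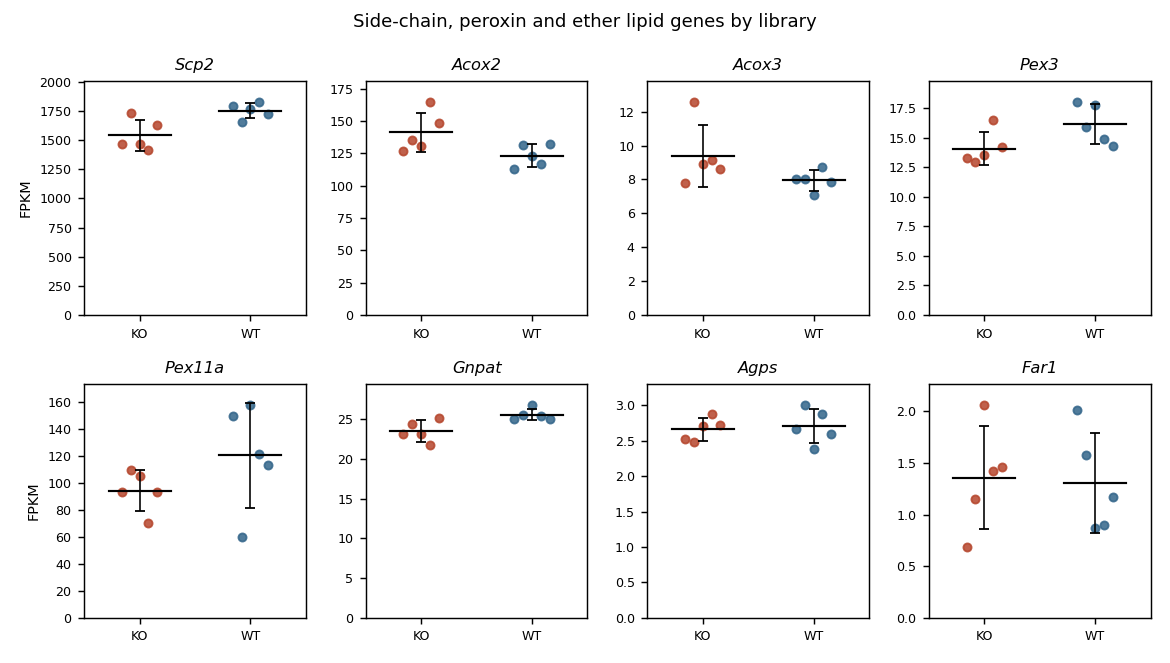
FPKM of Scp2, Acox2, Acox3, Pex3, Pex11a, Gnpat, Agps and Far1 in each KO (red) and WT (blue) library, with the mean and SD of 5 as lines and axes from 0. The groups overlap in all 8 genes, and 1 WT library of Pex11a, at 59.53 FPKM, lies below all KO libraries.

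In ether lipid synthesis, whose products include ethanolamine plasmalogens, no gene was at an unadjusted p under 0.05. By the same limma test 9.07% of all genes were lower and 2.69% higher in KO at that p. Gnpat, which acylates dihydroxyacetone phosphate in the first step, had 23.16, 24.42, 23.12, 21.71 and 25.18 FPKM in KO replicates 1 to 5, against 25.00, 25.58, 26.76, 25.43 and 25.06 FPKM in WT replicates 1 to 5. Only KO replicate 5 lay above any WT library (log2 fold change -0.12, 95% CI -0.25 to 0.01, limma adjusted p = 0.442). Gnpat came under an unadjusted p of 0.05 with no filter, with array weights, without KO replicate 2 and without KO replicate 5. Gnpat shares 88 exon bases with 2810004N23Rik on the opposite strand, at an average of 15.4 FPKM for that gene. Agps, which puts the ether bond in place, had 2.52, 2.48, 2.71, 2.88 and 2.72 FPKM in KO replicates 1 to 5, against 2.66, 3.0, 2.38, 2.88 and 2.60 FPKM in WT replicates 1 to 5. The WT libraries held both the highest and the lowest value (log2 fold change -0.02, 95% CI -0.21 to 0.17).

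Far1, the reductase that supplies the fatty alcohol, was the gene with the lowest level. It had 0.69, 1.15, 2.06, 1.42 and 1.46 FPKM in KO replicates 1 to 5, against 2.01, 1.58, 0.87, 0.90 and 1.17 FPKM in WT replicates 1 to 5. The groups overlapped almost wholly, and the 95% CI of -0.43 to 0.50 on the log2 scale was the widest of the 3 ether lipid genes.

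Genes for peroxide, epoxide, urate and glycolate overlapped between genotypes, as most genes tested did. Cat, the catalase that removes hydrogen peroxide, had 1211.47, 1187.85, 1116.88, 997.02 and 1182.57 FPKM in KO replicates 1 to 5, against 1218.24, 962.01, 1236.15, 1220.67 and 1065.87 FPKM in WT replicates 1 to 5. Its 95% interval, -0.18 to 0.18 on the log2 scale, was centred on 0. Ephx2, the soluble epoxide hydrolase, had 624 ± 42.4 FPKM in KO and 649 ± 50.1 FPKM in WT, and Uox, the urate oxidase, 782 ± 77.3 FPKM in KO and 749 ± 58.1 FPKM in WT. Hao1, the glycolate oxidase, had 56.1 ± 8.38 FPKM in KO and 55.0 ± 10.3 FPKM in WT. All 4 intervals spanned 0, as did those of 10937 of the 12395 genes tested.

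**Figure D5:**
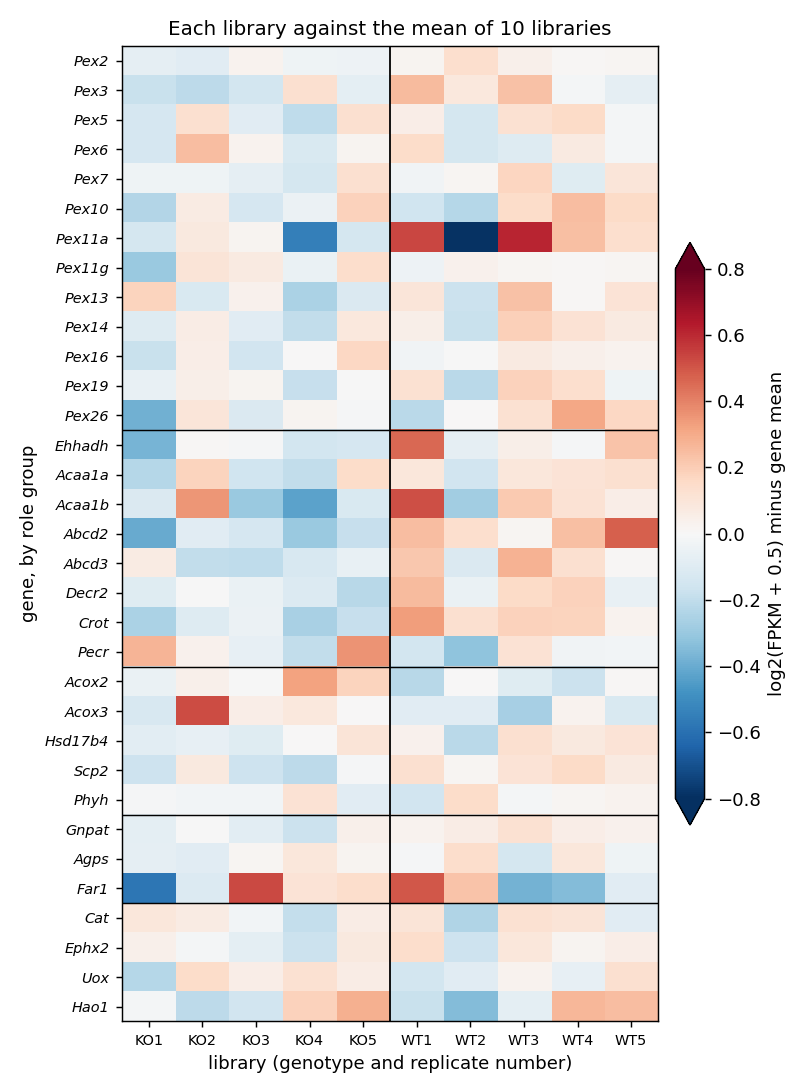
Log2(FPKM + 0.5) of each gene in each library minus the mean of the 10 libraries, from blue (lower) to red (higher), with KO libraries left of the vertical line and role groups split by horizontal lines. WT replicate 2 is the bluest WT column, and its Pex11a value, -0.79, lies near the lower end of the color scale.

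Libraries of 1 genotype differed among themselves across many of these genes. WT replicate 2 was the lowest WT library in 17 of 33 genes, and in 5 of the 8 straight-chain genes, where WT replicate 1 was the highest in 4. In KO, replicate 4 was the lowest in 13 genes and replicate 1 in 12, and replicate 2 was the highest in 12. Without WT replicate 2, 8 genes were lower and 1 higher in KO at an unadjusted p under 0.05, against 8.46% and 3.17% of all genes, and Pex11a and Acaa1b were then among the lower ones. Without KO replicate 3, the library with pancreas transcripts, 5 genes were lower and 1 higher, or 15.2% lower against 9.52% of all genes, of which 2.51% were higher.

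Other peroxisome genes were read from a wider list of 54, all found in the table, of which 52 were tested. None passed the adjusted test. At an unadjusted p under 0.05, 7 were lower and 3 higher in KO, or 13.5% and 5.77%, against 9.07% and 2.69% of all genes tested. That count of 10 was 5 without WT replicate 1, 6 without KO replicate 2 or WT replicate 3, and 16 without WT replicate 2. Acot4, a peroxisomal thioesterase, had 37.1 ± 8.00 FPKM in KO and 57.4 ± 14.6 FPKM in WT, and Dhrs4, a peroxisomal reductase, 110 ± 12.2 FPKM in KO and 130 ± 9.69 FPKM in WT (limma adjusted p = 0.292 and 0.266). The 3 higher ones lie outside fatty acid oxidation. Mvk and Pmvk of the mevalonate pathway had 9.22 ± 1.94 and 12.9 ± 2.68 FPKM in KO, against 6.0 ± 2.10 and 9.89 ± 0.859 FPKM in WT, and Abcd4, known as a lysosomal cobalamin transporter, had 5.35 ± 0.330 FPKM in KO and 4.15 ± 0.453 FPKM in WT (limma adjusted p = 0.308, 0.308 and 0.172). Of 6 regulators, none passed. Ppara, the gene of PPAR alpha, had 66.8 ± 8.00 FPKM in KO and 74.3 ± 10.1 FPKM in WT (log2 fold change -0.15, limma adjusted p = 0.589), and the coactivator Ppargc1a 5.40 ± 1.43 FPKM in KO and 3.76 ± 0.569 FPKM in WT (limma adjusted p = 0.285).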

How the data were processed

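Poly(A)-selected RNA was sequenced from both ends in 10 liver libraries, made with a directional second-strand step, per the labels' protocols. The authors deposited FPKM for 47729 genes, rounded to 2 decimals, and 2 further columns without values were not used. The submitters' processing notes name build mm10 and, without their roles, DESeq, DESeq2, RSEM, STAR and R 4.0.2. No source used here gives the annotation or says whether counting used strand. FPKM scales to each library's total, so abundant transcripts can shift the rest. Steps between low values of genes with 1 transcript of 350 to 1000 bases placed depth at 21200000 to 28300000 fragments per library, with 92.2% to 96.2% of values within 0.1 fragment of a whole number.

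KO was tested against WT with limma 3.58.1 in R 4.3.3 on log2(FPKM + 0.5), which understates changes of low genes, over the 12395 genes whose mean reached 0.5 FPKM (trend, robust prior, two-sided, Benjamini-Hochberg over all genes, threshold 0.05, 95% confidence intervals). The fit was tested on simulated data. All 33 genes are named. Values per library are given for those at an unadjusted p under 0.05, for 9 preset genes and for the highest in each role group. Of other genes the 6 of lowest p and Ppara are named, with group means. The members and lists were chosen with earlier results of these data known. Other settings tried were each library left out, a block for the replicate number, array weights, a plain prior, 4 scalings, a filter at 2 FPKM or none, and pseudocounts of 0.1 and 1. Coordinates, exon overlaps and shared 50-base words are from GENCODE M21 (GRCm38) and promoters from RefSeq.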

Additional observations from a re-analysis of the deposited data

Results flagged for a closer look

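Values of 1 library lay far from the other 4 of its group, by Dixon's criterion at 95%, in 4 of the 68 sets of 5 libraries looked at (33 peroxisome genes and Etnppl in each genotype), and chance gives about 1 in 20. Acox3 had 12.55 FPKM in KO replicate 2, and the other KO libraries 7.81 to 9.12 FPKM. Uox had 650.51 FPKM in KO replicate 1, below the other KO libraries. Acaa1a had 228.65 FPKM in WT replicate 2, below the other WT libraries. Pex2 had 27.40 FPKM in WT replicate 2, above the other WT libraries.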

How the results depend on the processing

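Crot and Abcd2 stayed below an unadjusted p of 0.05 and lower in KO under all 21 alternatives, and no peroxisome gene passed an adjusted p of 0.05 under any of them. The count of all genes past that threshold, 8 as reported, was 5 without a filter, 5 without trend and robust prior and 18 with array weights, and it was 4 to 18 with 1 library left out, 18 being without WT replicate 2. The count of peroxisome genes at an unadjusted p under 0.05, 8 as reported, was 4 with median-of-ratios scaling. It was 7 with quantile normalization, 7 with TPM and 8 with rescaling without the top 50 genes. With 1 library left out it was 3 to 9, and the count of other peroxisome genes, 10 as reported, was 5 to 16.

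With the replicate number as a block, 5 genes passed the adjusted threshold and 6 peroxisome genes were at an unadjusted p under 0.05. Deviations of same-numbered libraries correlated above 0.1 in 2 of 5 pairs, and 5 of 10 libraries correlated best with their own number. The labels do not say what a number stands for, and the numbers were not taken to pair the libraries.

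The sign was kept under all alternatives in 24 of 33 genes. Among log2 fold changes near 0, median-of-ratios scaling gave 0.039 for Pex11g, 0.012 for Pex16, 0.00076 for Hsd17b4, 0.046 for Phyh and 0.030 for Agps. Quantile normalization gave 0.032 for Pex11g, 0.0013 for Pex16, 0.051 for Agps and -0.050 for Cat. Rescaling to TPM gave 9.9e-05 for Phyh, and rescaling without the top 50 genes gave 0.0011 for Pex11g and 0.0063 for Phyh. Array weights gave -0.0033 for Pex6, 0.0011 for Pex11g, 0.0094 for Phyh, 0.0089 for Agps and -0.039 for Cat. With 1 library left out, Pex11g ran from -0.052 to 0.057, Cat from -0.058 to 0.049, Pex6 from -0.043 to 0.055, Agps from -0.055 to 0.015, Far1 from -0.091 to 0.18, Hao1 from -0.046 to 0.11 and Phyh from -0.049 to 0.024. The cause was not tested. Depth limits low genes such as Far1 most.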
